A study of Arabidopsis thaliana with 16 samples.

Results

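The genes described here are those strongly lowered in seedlings of the fer mutant, and 100 of the 32833 genes in the count table belong to them. Of the 32833, 6850 had no count in any library and 10768 averaged 10 or more CPM (each count scaled to a common library total) in WT control seedlings. A gene was taken when its WT control mean was at least 10 CPM, when the log2 ratio of mean CPM + 1 in fer control to that in WT control was -1.5 or less, and when its highest fer control library was below its lowest WT control library. FER itself (AT3G51550) was left out. The mirrored rule, for genes raised in fer control, gave 828 genes. The values in control seedlings therefore chose the genes and are given as a description, without a test. The tests below compare genotypes in arabidopside-treated seedlings, whose 8 libraries the rule did not use. An alternative fit of all 16 libraries and a background count over all genes in control seedlings are named where they are given.

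The series holds 3′-end sequencing libraries (QuantSeq, which reads a fragment near the end of each transcript) of whole Arabidopsis thaliana seedlings that were 10 days old. There were 4 libraries in each of 4 groups, namely fer with Aradopside, WT with Aradopside, fer control and WT control. WT is the accession Col-0 and fer is fer-4, a single T-DNA insertion allele of FER in Col-0. "Aradopside" is the labels' name for treatment with arabidopside A, a galactolipid carrying oxylipin acyl groups, at 12.5 µM for 2 h, and seedlings of all groups were moved from plates to liquid medium beforehand. In whole seedlings fewer cells of a type and less RNA per cell cannot be told apart. Totals ranged from 2843653 to 26358335 counts, the highest being fer Aradopside replicate 2. FER had between 0 and 14 counts in the 8 fer libraries and between 356 and 793 counts in the 8 WT libraries.

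FER is a plasma membrane receptor kinase of the CrRLK1L family that binds RALF peptides and cell wall pectin and is known for monitoring the wall during growth. Plant cells enlarge when the wall is loosened under turgor. Xyloglucan endotransglucosylase/hydrolases (XTHs) cut and rejoin xyloglucan, the polymer that tethers cellulose. Expansins loosen the wall without hydrolysis, and arabinogalactan proteins are heavily glycosylated proteins of the wall and the cell surface.

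The stretch upstream of the annotated gene start was read for each of the 100 genes, 250 bases long, from the RefSeq TAIR10.1 genome and its annotation. Of the 14 motifs searched on both strands by exact letters, CATGTG, a form of the E-box, differed most in percentage points among the motifs that were more frequent in the members. It was present in 19 of the 100 stretches (19%), against 10.9% of 17233 upstream stretches of all tested genes. In 10 of those 19 the match began between 80 and 60 bases before the gene start, a window chosen after the positions were seen. Of all stretches, 212 of 17233 (1.23%) had a match beginning in that window, or 11.3% of those with CATGTG. The 4 members with this motif and the lowest ratio in the rule are shown, with the motif (CATGTG, or CACATG where it lies on the other strand) in capitals, because they hold the motif in 2 XTH genes, an expansin and a GDSL lipase.
XTH33: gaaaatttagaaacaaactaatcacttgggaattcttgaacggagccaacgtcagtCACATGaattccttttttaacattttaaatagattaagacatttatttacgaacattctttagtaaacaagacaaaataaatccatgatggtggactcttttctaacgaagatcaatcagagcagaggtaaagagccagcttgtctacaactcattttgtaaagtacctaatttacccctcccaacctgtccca
XTH17: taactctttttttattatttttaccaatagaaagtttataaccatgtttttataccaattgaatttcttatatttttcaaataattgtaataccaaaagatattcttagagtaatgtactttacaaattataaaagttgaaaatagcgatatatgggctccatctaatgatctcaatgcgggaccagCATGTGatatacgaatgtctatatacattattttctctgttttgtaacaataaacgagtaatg
EXPA11: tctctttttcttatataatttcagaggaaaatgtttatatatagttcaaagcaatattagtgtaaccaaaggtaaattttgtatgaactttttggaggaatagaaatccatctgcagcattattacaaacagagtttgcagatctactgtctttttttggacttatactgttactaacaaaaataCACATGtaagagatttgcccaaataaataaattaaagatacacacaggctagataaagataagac
AT4G18970: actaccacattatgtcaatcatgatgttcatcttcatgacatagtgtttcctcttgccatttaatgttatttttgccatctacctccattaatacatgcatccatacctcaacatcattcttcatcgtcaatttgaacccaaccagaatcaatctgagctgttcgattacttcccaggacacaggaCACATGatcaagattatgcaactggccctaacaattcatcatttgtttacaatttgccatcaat

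In TAIR10.1 these stretches are XTH33 chr1:3481042-3481291 on the minus strand, XTH17 chr1:24256804-24257053 on the plus strand, EXPA11 chr1:6999840-7000089 on the minus strand and AT4G18970 chr4:10391299-10391548 on the minus strand, each printed 5′ to 3′ towards its gene. In XTH17, EXPA11 and AT4G18970 the match begins 63, 65 and 64 bases before the start, while in XTH33 it begins 194 bases before it. Of the 10 XTH members 8 had no CATGTG in the 250 bases, among them XTH4 and XTH7, which had the lowest ratios of the family in control seedlings. The G-box CACGTG was present in 2 member stretches (2%, against 7.35% of all) and the W-box core TTGACC in 5 (5%, against 12.1% of all). TATAAA was present in 41 member stretches (41%, against 46.3% of all), and CGTGNG, the site associated with brassinosteroid-regulated factors, in 13 (13%, against 12.9% of all). Mean GC content was 30.5% in the members and 31.5% in all. These matches are a description of the letters in the window and not of binding.

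In arabidopside-treated seedlings 94 of the 100 genes were lower in fer than in WT at an adjusted p under 0.05 (edgeR's quasi-likelihood test, Benjamini-Hochberg adjustment over 17234 genes), and 0 were higher. Over all genes tested 13.4% were called lower and 17.3% higher. The log2 fold change was below 0 for each of the 100, with a median of -1.87 against -0.00 over all genes tested, and was -1 or less for 93 (4.57% of all genes). Every fer Aradopside library was below every WT Aradopside library for 90 of them (16.2% of all genes). All 100 passed edgeR's filter on low counts. Fitted changes ran from -3.11 for XTH7 to -0.52 for BBX17, apart from 2 genes with almost no counts in fer, DGAT2 and AT1G29090, whose counts are given below. Calls of 9 genes were lost when single libraries were left out. Without WT Aradopside replicate 3, 85 genes were called and AT2G10940, AT2G33850, AT4G38410, AT5G40150, CYP77B1, HEC1, ICL, LrgB and MIOX2 were not, and the losses without other libraries were all among these 9. In control seedlings, where the genes were chosen, the ratio of the rule had a median of -1.81 and a range of -3.77 to -1.5, and 11.5% of 17001 genes were called lower there.

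**Figure D1:**
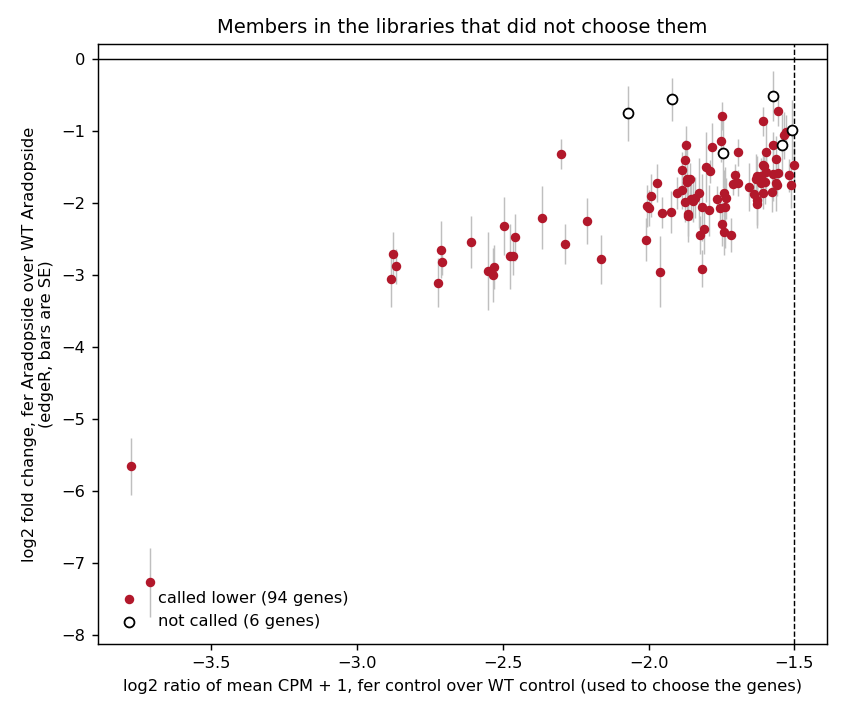
Each point is 1 of the 100 genes, with the log2 ratio that chose it (fer control over WT control, x axis) and its log2 fold change in the treated libraries (fer Aradopside over WT Aradopside, y axis, bars are SE). All points lie below 0, and the 6 open circles are the genes that did not pass the test.

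The 4 fer libraries of a group were not alike. The summed level of the 100 genes was 9997, 8565, 5383 and 3667 CPM in fer Aradopside replicates 1 to 4, against 26202, 25300, 26652 and 21878 CPM in WT Aradopside. In control seedlings it was 12617, 10012, 4966 and 5432 CPM in fer and between 29053 and 32372 CPM in WT. Replicates 1 and 2 were both above replicates 3 and 4 for 75 of the 100 genes in fer Aradopside (38.1% of all genes) and for 86 in fer control (32.7% of all genes), 70 of them in both. The median log2 difference of the genes from the WT mean was -1.42, -1.61, -2.15 and -2.59 in the 4 fer Aradopside libraries. Across genes the deviations of fer Aradopside and fer control libraries from their group means followed the same division, with r between 0.367 and 0.610 among replicates 1 and 2, between 0.185 and 0.694 among replicates 3 and 4, and between -0.625 and -0.201 across them, so the treated fer libraries are not fully separate from those that chose the genes. The number of genes called lower was 93 without fer Aradopside replicates 1 and 2 and 95 without replicates 3 and 4, both choices made after seeing these levels. Membership rests on the same spread, since the rule takes 200 genes without fer control replicate 1.

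**Figure D2:**
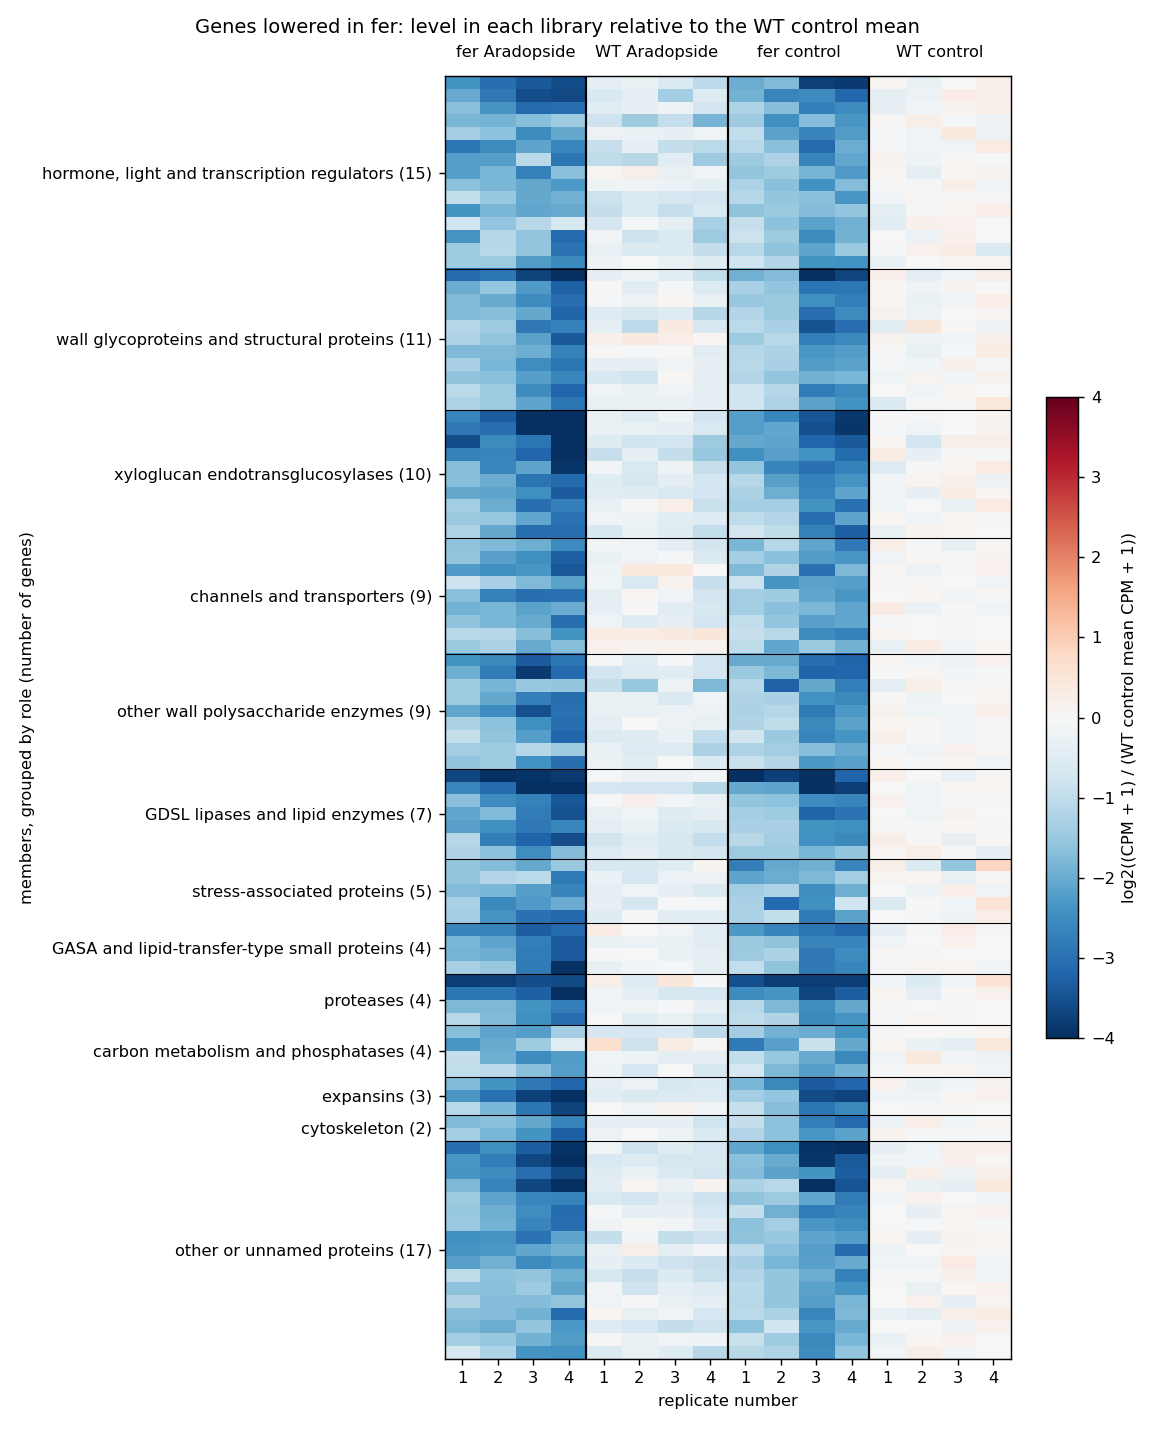
Heat map of the 100 genes (rows, grouped by role) in the 16 libraries (columns, replicates 1 to 4 of each group), coloured by log2 of CPM + 1 relative to the WT control mean, with values beyond 4 drawn at the end of the scale. The fer columns are blue in both treatments, and replicates 3 and 4 of fer are mostly darker than replicates 1 and 2.

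The xyloglucan enzymes were the largest named enzyme family among the genes, with 10 XTHs, and all 10 were called lower in treated fer seedlings without overlap between genotypes. XTH7, AT4G37800, had 98.7, 87.2, 32.7 and 36.6 CPM in fer Aradopside libraries against 602, 595, 571 and 470.4 CPM in WT Aradopside libraries. It was 8.63-fold lower in fer (log2 fold change -3.11 ± 0.34 (SE), adjusted p = 0.000474, edgeR). XTH4 (AT2G06850) had 55.3, 33.2, 18.7 and 12.7 CPM in fer Aradopside libraries against 275, 235, 299 and 199 CPM in WT Aradopside libraries, a log2 fold change of -3.06 ± 0.39 (SE), adjusted p = 0.00110. Both were among the 15 genes with the lowest ratio in control seedlings, where XTH7 averaged 109 ± 62.9 CPM in fer control and 725 ± 58.5 CPM in WT control (SD, n = 4 each). The fer replicate with the least XTH7, replicate 3, still had 32.7 CPM.

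XTH33, a membrane-anchored member of the family, rests on few counts in fer. It had 0.400, 1.82, 1.16 and 0 CPM in fer Aradopside libraries against 10.9, 8.58, 8.63 and 5.08 CPM in WT Aradopside libraries (log2 fold change -2.95 ± 0.54 (SE), adjusted p = 0.00326). XTH15 had 7.81, 8.08, 5.28 and 1.46 CPM in fer Aradopside libraries against 28.8, 42.3, 28.4 and 18.7 CPM in WT Aradopside libraries (log2 fold change -2.33 ± 0.41 (SE), adjusted p = 0.00312). The remaining XTH members, XTH6, XTH8, XTH9, XTH17, XTH31 and XTH32, had log2 fold changes between -2.21 (XTH17) and -1.63 (XTH32). Of the 25 XTH genes tested, 11 were called lower, the 10 above and XTH16 (-2.04 ± 0.34), and 3 were called higher. The higher ones were XTH18 (1.95 ± 0.51, adjusted p = 0.0229), XTH30 (1.65 ± 0.49, adjusted p = 0.0349) and XTH19 (0.86 ± 0.19, adjusted p = 0.00654). XTH17, XTH18 and XTH19 are close paralogs. How reads of a conserved 3′ end were assigned among them was not tested, so their opposite signs are uncertain. The call of XTH18 was lost without WT Aradopside replicate 2 or 3 or fer Aradopside replicate 3 or 4 (edgeR, adjusted p between 0.0502 and 0.0690). That of XTH30 was lost without any 1 of the WT Aradopside libraries or fer Aradopside replicate 3 (adjusted p between 0.0531 and 0.0804). The 15 tested XTH genes outside the set had a median log2 fold change of 0.14.

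**Figure D3:**
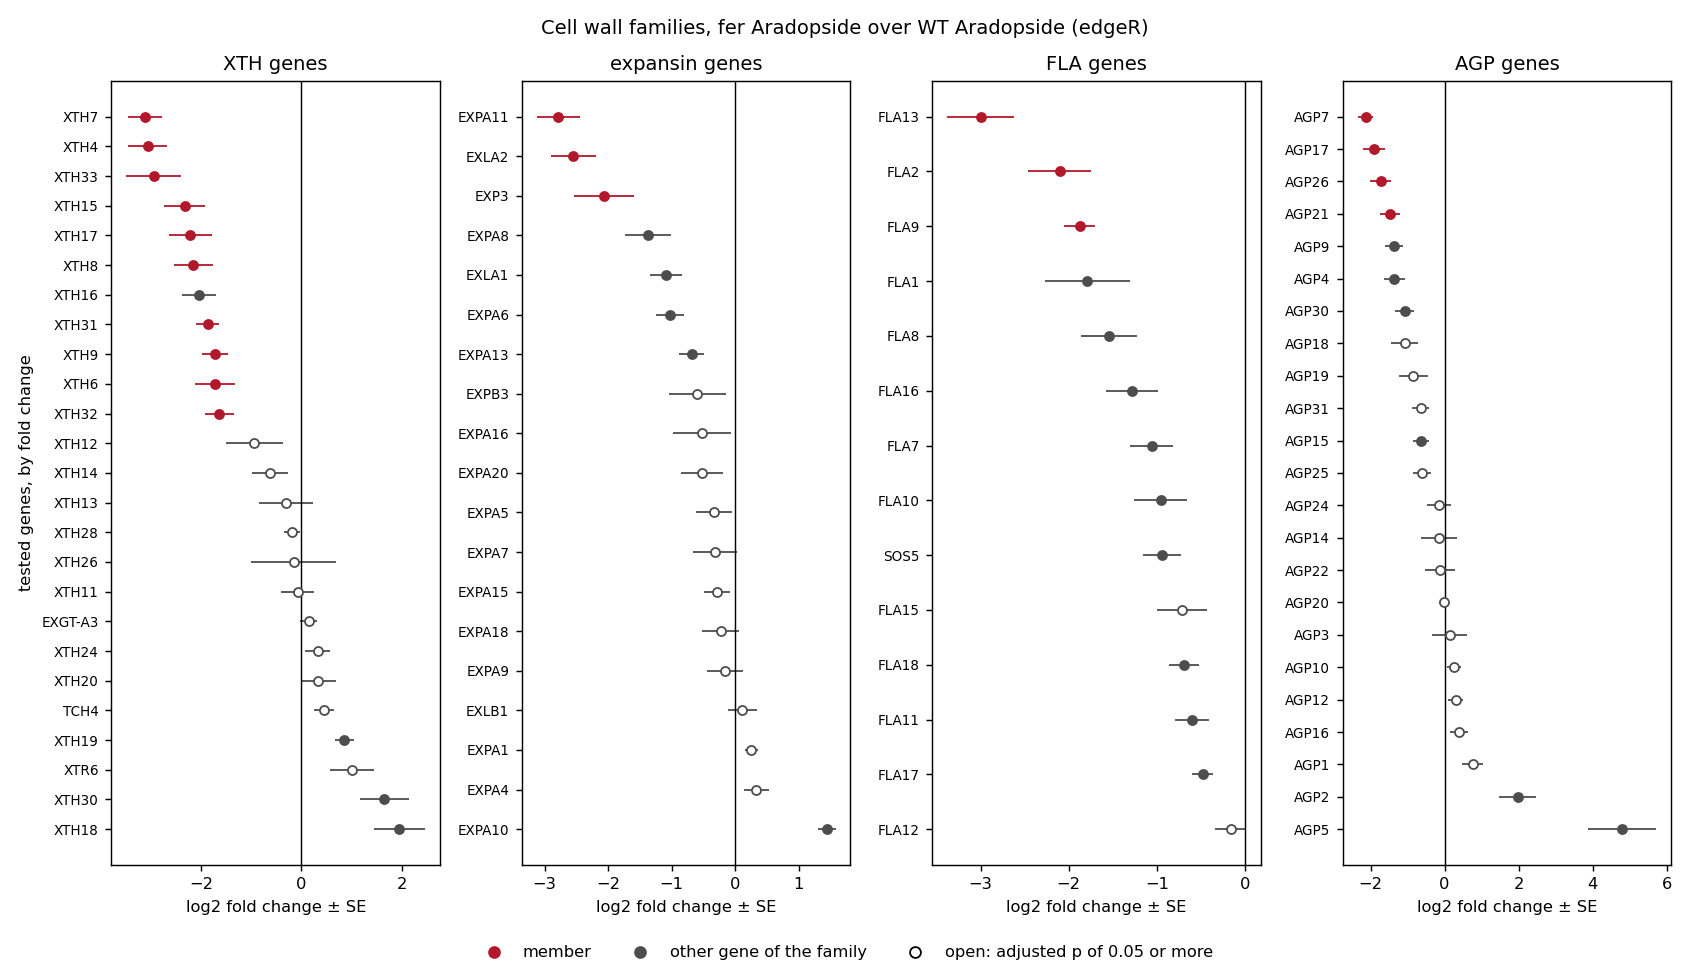
Log2 fold change (fer Aradopside over WT Aradopside, x axis, bars are SE) of every tested gene of 4 families, sorted, with the genes of the set in red, other family members in dark grey, and open symbols where the adjusted p was 0.05 or more. XTH genes lie on both sides of 0, whereas each of the 14 FLA genes lies below 0. EXP3 is EXPA3 and SOS5 is an FLA gene.

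Among expansins, 3 genes met the rule and all 3 were called lower. EXPA11 had 11.01, 6.601, 3.47 and 2.33 CPM in fer Aradopside libraries against 42.8, 38.9, 40.3 and 40.9 CPM in WT Aradopside libraries (log2 fold change -2.79 ± 0.34 (SE), adjusted p = 0.000543). EXPA3 had 53.7, 32.6, 15.03 and 8.02 CPM in fer Aradopside libraries against 117, 105, 129 and 108 CPM in WT Aradopside libraries (log2 fold change -2.06 ± 0.47 (SE), adjusted p = 0.0121). Both were without overlap, and in each the fer values fell into a higher pair (replicates 1 and 2) and a lower pair (3 and 4). EXLA2, an expansin-like gene, had a log2 fold change of -2.55 ± 0.36 but only 0.583 to 3.20 CPM in fer Aradopside. Of the 19 expansin and expansin-like genes tested, 7 were called lower, 4 of them among the 16 outside the set. These 4 were EXPA8 (-1.37 ± 0.36), EXLA1 (-1.09 ± 0.26), EXPA6 (-1.03 ± 0.22) and EXPA13 (-0.69 ± 0.20), and 1 was called higher, EXPA10 (1.44 ± 0.14, adjusted p = 8.71e-05). The call of EXLA1 was lost in the fit of all 16 libraries (adjusted p = 0.0812). EXPA7 and EXPA18, the expansins of root hairs, had values of -0.32 ± 0.35 and -0.23 ± 0.29 and did not pass.

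The 11 wall glycoproteins and structural proteins were all called lower without overlap. FLA13, a fasciclin-like arabinogalactan protein, showed the largest change with 147, 169, 95.95 and 42.3 CPM in fer Aradopside libraries against 1021, 1106, 933 and 637 CPM in WT Aradopside libraries (log2 fold change -3.0 ± 0.38 (SE), adjusted p = 0.00110). FLA2 and FLA9 had values of -2.1 ± 0.35 and -1.88 ± 0.18. Of 14 FLA genes tested, 12 were called lower and 0 higher, with a median of -1.01, and the 11 outside the set had a median of -0.94 with 9 called. Among the called FLA genes outside the set were FLA1 (-1.79 ± 0.48, adjusted p = 0.0247), FLA8 (-1.54 ± 0.32), FLA16 (-1.28 ± 0.29) and FLA7 (-1.06 ± 0.24).

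The genes with an AGP symbol, FLA genes left out, did not move as a block. AGP7, AGP17, AGP21 and AGP26 are members, with log2 fold changes of -2.14 ± 0.22, -1.9 ± 0.30, -1.48 ± 0.27 and -1.73 ± 0.27. Of 23 AGP genes tested, 8 were called lower and 2 higher, AGP5 (4.8 ± 0.93, adjusted p = 0.00698) and AGP2 (1.97 ± 0.49, adjusted p = 0.0185). Outside the set 4 of 19 were called lower and 2 higher, where 13.4% of all genes tested were called lower and 17.3% higher. AGP5 averaged 67.1 ± 61.4 CPM in fer Aradopside and 2.54 ± 0.729 CPM in WT Aradopside (SD, n = 4 each), and limma-voom did not call it (adjusted p = 0.0608). The proline-rich protein gene PRP4 had 668, 522, 245 and 157 CPM in fer Aradopside libraries against 1265, 1188, 1298 and 1115 CPM in WT Aradopside libraries (log2 fold change -1.6 ± 0.37 (SE), adjusted p = 0.0133), a value that was lower in fer replicates 3 and 4 than in 1 and 2. EXORDIUM LIKE 5 (-1.41 ± 0.28), the glycine-rich AT5G61660 (-1.57 ± 0.24) and the E6-like AT2G33850 (-1.72 ± 0.47) complete the group. The list of extensins and proline-rich proteins, which holds 1 member, had 13 of 123 tested genes called lower and 29 higher. Outside the set it was 12 of 122 lower and 29 higher, with a median of 0.12.

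Among the 9 other enzymes of wall polysaccharides 8 were called lower. XYL1, the alpha-xylosidase that trims xyloglucan side chains, had 321, 248, 142 and 95.2 CPM in fer Aradopside libraries against 599, 772, 666 and 639 CPM in WT Aradopside libraries (log2 fold change -1.71 ± 0.30 (SE), adjusted p = 0.00365). AT1G62770, annotated as a pectin methylesterase inhibitor, had 4.41, 3.72, 1.82 and 2.77 CPM in fer Aradopside libraries against 26.5, 20.4, 25.7 and 15.8 CPM in WT Aradopside libraries (log2 fold change -2.74 ± 0.26 (SE), adjusted p = 8.68e-05). Genes of pectin enzymes were called lower in 23 of 69 tested and higher in 7. Outside the set 21 of 67 were called lower and 7 higher, where 13.4% of all genes tested were called lower and 17.3% higher. BGAL2, a beta-galactosidase, had 3.804, 2.504, 3.47 and 3.35 CPM in fer Aradopside libraries against 5.65, 3.48, 9.98 and 2.68 CPM in WT Aradopside libraries. Its genotypes overlapped and it was not called (-0.76 ± 0.39 (SE), adjusted p = 0.161). GALS1, which makes pectic galactan, had a log2 fold change of -1.76 ± 0.32, and MIOX2, a myo-inositol oxygenase that feeds wall sugar synthesis, one of -0.73 ± 0.21 with overlap.

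The most abundant of the 100 genes was AT2G45180, which encodes a small lipid-transfer-type protein and, like the other 3 genes of its group, was called lower. It had 2903, 2386, 1517 and 1015 CPM in fer Aradopside libraries against 8612, 8678, 8476 and 7655 CPM in WT Aradopside libraries. It was 4.21-fold lower in fer (log2 fold change -2.07 ± 0.25 (SE), adjusted p = 0.000564) and made up between 27.7% and 29.0% of the summed level of the set in fer Aradopside and between 31.8% and 35.0% in WT Aradopside. GASA1, a gibberellin-responsive peptide gene, had 125, 123, 78.3 and 89.6 CPM in fer Aradopside libraries against 954, 773, 717 and 569.6 CPM in WT Aradopside libraries. Its log2 fold change was -2.82 ± 0.18 (SE), adjusted p = 1.39e-05. AT5G14920, a GASA-family gene, and AT2G10940, a lipid-transfer-type gene, had log2 fold changes of -2.19 ± 0.27 and -1.86 ± 0.49. The lipid transfer protein family did not move as a block, with 8 of 56 tested genes called lower and 12 higher. Outside the set 6 of 54 were called lower and 12 higher, with a median of 0.36. Over all genes tested 13.4% were called lower and 17.3% higher. Of the 4 GASA genes tested 3 were called lower, 2 of them members. Outside the set GASA6 (-1.1 ± 0.35) was called, while GASA4 (-0.29 ± 0.25) did not pass. The call of GASA6 was lost without WT Aradopside replicate 1, 3 or 4 or fer Aradopside replicate 2, 3 or 4 (edgeR, adjusted p between 0.0511 and 0.1002). The call for AT2G10940 (adjusted p = 0.0229) was lost without WT Aradopside replicate 3 (adjusted p of 0.0509) and without fer Aradopside replicate 3 (adjusted p of 0.0603).

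All 7 GDSL lipases and lipid enzymes were called lower. ADS1, a fatty acid desaturase, had 23.2, 16.5, 8.26 and 4.23 CPM in fer Aradopside libraries against 92.9, 87.1, 85.6 and 66.6 CPM in WT Aradopside libraries (log2 fold change -2.65 ± 0.40 (SE), adjusted p = 0.00208). AT1G28660 and ARAB-1 (AT1G28670) are neighbouring GDSL genes on chromosome 1 and were the only adjacent pair among the 100, with log2 fold changes of -2.04 ± 0.29 and -2.08 ± 0.16. AT4G18970 and AT5G14450, GDSL genes elsewhere, had -2.51 ± 0.30 and -1.39 ± 0.32, and CYP77B1, a cytochrome P450, -2.06 ± 0.56. The family as a whole was mixed. Of 42 GDSL lipase genes tested, 10 were called lower and 7 higher, with a median of -0.11. Outside the set 6 of 38 were called lower and 7 higher, with a median of 0.02, where 13.4% of all genes tested were called lower. The 100 genes were spread over all chromosomes, with 30, 14, 19, 14 and 23 on chromosomes 1 to 5.

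The gene with the lowest ratio in control seedlings, DGAT2 (AT3G51520), lies 3 genes from FER, 4.82 kb away. It encodes a diacylglycerol acyltransferase, an enzyme of storage lipid synthesis. It had 4, 3, 3 and 4 counts in the fer Aradopside libraries against 104, 68, 98 and 75 in WT Aradopside, a ratio of 61.2-fold lower (95% exact interval 36.0 to 113, counting error only). The deep fer Aradopside replicate 2 holds most of the fer total, and without it, a choice made after seeing the counts, the ratio was 31.5-fold (17.4 to 63.7). In control seedlings it had 2, 2, 0 and 5 counts in fer and 103, 85, 104 and 119 in WT. AT3G51530, between DGAT2 and FER, overlaps DGAT2 by 67 bases on the opposite strand and averaged 7.41 CPM in WT control, under the 10 CPM of the rule. It had 1, 3, 0 and 0 counts in fer Aradopside against 24, 24, 34 and 29 in WT Aradopside, a ratio of 68.9-fold lower (95% exact interval 26.2 to 257), or 112-fold (19.6 to 4446) without fer Aradopside replicate 2. Without a stated strand option reads of the overlap cannot be assigned to either gene. The part of the FER locus itself in these values was not tested.

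**Figure D4:**
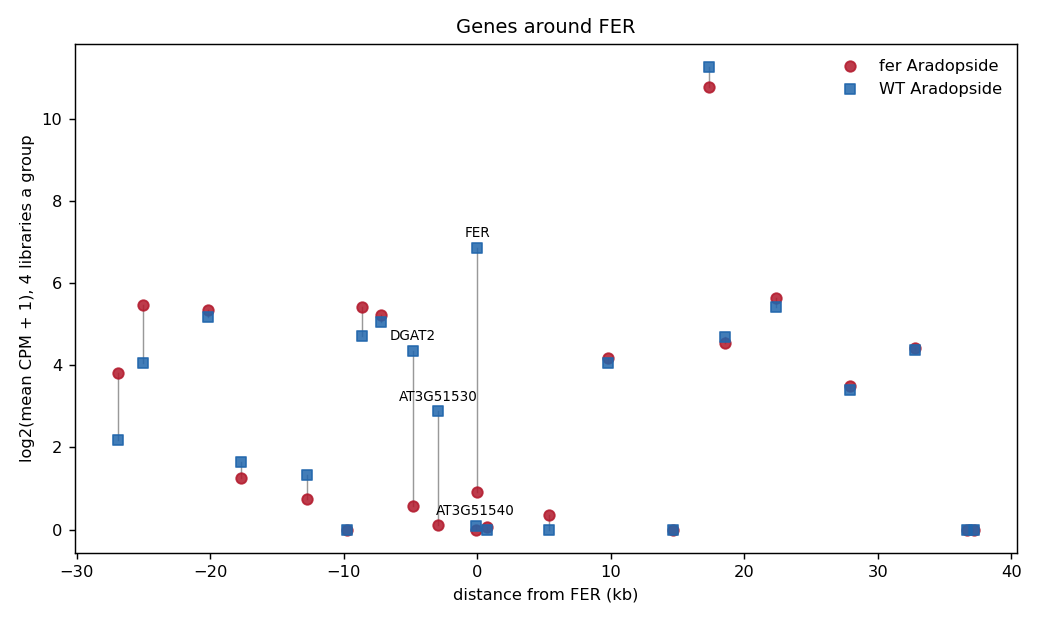
Mean level in treated seedlings (log2 of CPM + 1, y axis, mean of 4 libraries) of the genes in the table up to 12 places from FER in the annotation, by distance from FER in kb (x axis), with red circles for fer Aradopside and blue squares for WT Aradopside joined by a line. FER, DGAT2 and AT3G51530 have long lines and lie below 1 in fer.

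AT1G29090, a cysteine protease gene on chromosome 1, had at most 1 count in every fer library. It had 0, 1, 1 and 1 counts in fer Aradopside and 77, 32, 93 and 45 counts in WT Aradopside. The ratio was 205-fold lower in fer, with a 95% exact interval of 69.2 to 999 for counting error, and 124-fold lower (34.004 to 1031) without fer Aradopside replicate 2. In control seedlings it had 1 count in the 4 fer libraries together and 253 counts in WT. The aspartyl protease genes AT4G16563 (-2.88 ± 0.24) and AT3G54400 (-1.94 ± 0.18) and the carboxypeptidase-like scpl25 (-1.67 ± 0.35) were the other proteases, all called lower.

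Hormone, light and transcription regulators formed the largest group with a named role, and 11 of 15 were called lower. SOB5, a gene linked to cytokinin levels, had 4.205, 2.35, 1.65 and 1.31 CPM in fer Aradopside libraries against 20.2, 21.4, 17.1 and 12.04 CPM in WT Aradopside libraries (log2 fold change -2.89 ± 0.31 (SE), adjusted p = 0.000180). AT3G53250, a SAUR auxin-responsive gene, had a log2 fold change of -2.74 ± 0.45. BEE3, a brassinosteroid-induced bHLH factor, had 13.4, 7.89, 4.29 and 4.66 CPM in fer Aradopside libraries against 32.5, 35.6, 38.2 and 26.5 CPM in WT Aradopside libraries (log2 fold change -2.12 ± 0.29 (SE), adjusted p = 0.000806). Of the 4 BEE and HEC genes tested 3 were called lower, but BEE3 and HEC1 are members, and outside the set it was 1 of 2. The wider list of bHLH factors had 7 of 76 tested genes called lower and 14 higher. Outside the set it was 6 of 74 lower and 14 higher, with a median of 0.06. Over all genes tested 13.4% were called lower and 17.3% higher. RALF23, whose peptide binds FER, was close to the threshold of the rule (-1.52) and had 25.2, 24.7, 14.04 and 10.9 CPM in fer Aradopside libraries against 60.5, 69.4, 56.98 and 49.2 CPM in WT Aradopside libraries (log2 fold change -1.62 ± 0.23 (SE), adjusted p = 0.000881). Of the 8 RALF peptide genes tested, RALFL34 was also called lower (-1.23 ± 0.29) and RALF1 higher (0.93 ± 0.17). The auxin response list had 1 of 15 tested genes called lower and 5 higher. CYP707A2, an abscisic acid catabolic enzyme, PAR1, a repressor of shade responses, PKS4 and PHOT1, in phototropism, had values of -2.36 ± 0.36, -1.67 ± 0.22, -2.41 ± 0.31 and -0.87 ± 0.20.

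The 6 genes that were not called lower in treated seedlings were 4 of the regulators, BGAL2 and AT1G26540, and all 6 had overlapping genotypes. The zinc finger gene AT5G44260 had 3.804, 3.68, 4.29 and 5.39 CPM in fer Aradopside libraries against 8.76, 5.36, 7.87 and 3.75 CPM in WT Aradopside libraries (-0.56 ± 0.30 (SE), adjusted p = 0.175). BBX17, a B-box factor, had 6.41, 3.301, 4.95 and 7.29 CPM in fer Aradopside libraries against 7.01, 11.5, 8.83 and 4.28 CPM in WT Aradopside libraries (-0.52 ± 0.34 (SE), adjusted p = 0.280). The bHLH gene AT3G21330 (-1.31 ± 0.49 (SE), adjusted p = 0.0646), DREB26 (-1.2 ± 0.43 (SE), adjusted p = 0.0614) and AT1G26540 (-0.99 ± 0.42 (SE), adjusted p = 0.0980) also missed the threshold. With the replicate number as a block 97 of the 100 genes were called lower, these 3 among them. HEC1, in contrast, was called (-1.06 ± 0.32 (SE), adjusted p = 0.0323) but not when WT Aradopside replicate 1, 2 or 3 or fer Aradopside replicate 1 or 3 was left out (adjusted p between 0.0508 and 0.0858).

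The 9 channels and transporters were all called lower. The tonoplast aquaporin DELTA-TIP had 453, 294, 244 and 138 CPM in fer Aradopside libraries against 1118, 1211, 1290.5 and 906 CPM in WT Aradopside libraries (log2 fold change -1.98 ± 0.28 (SE), adjusted p = 0.00129). The list of the other aquaporins, which does not hold it, had 11 of 26 tested genes called lower and 5 higher. Other transporter lists had more genes called higher than lower. Nitrate and peptide transporters had 14 of 98 tested genes called lower and 18 higher, and outside the set 11 of 95 lower and 18 higher. Nodulin-like and MATE transporters had 13 of 85 called lower and 26 higher. Over all genes tested 13.4% were called lower and 17.3% higher. OCT3, a carnitine transporter, had 6.21, 5.35, 5.95 and 2.33 CPM in fer Aradopside libraries against 29.4, 45.02, 44.3 and 34.2 CPM in WT Aradopside libraries (log2 fold change -2.91 ± 0.26 (SE), adjusted p = 6.52e-05). The ion channel gene DND1 had -1.87 ± 0.22, the sugar transporter SWEET10 -1.94 ± 0.29 and the cation exchanger CAX3 -1.61 ± 0.15. The remaining roles held smaller groups, all called. The 5 stress-associated genes included LTI78, a cold- and drought-responsive protein (-1.97 ± 0.34), and AT1G53540, a small heat shock protein, whose WT control libraries ranged from 19.0 to 103 CPM. The cytoskeletal genes were TUB1 (-1.87 ± 0.32) and ACT11 (-1.67 ± 0.24).

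The 17 genes left outside the named roles (other or unnamed proteins) had a median log2 fold change of -1.82, against -1.87 over the 100. Of these, 16 were called lower. AT5G03120, an uncharacterized protein among the 15 lowest in control seedlings, had 4.41, 6.94, 3.47 and 1.89 CPM in fer Aradopside libraries against 37.8, 23.9, 30.1 and 26.8 CPM in WT Aradopside libraries (log2 fold change -2.71 ± 0.30 (SE), adjusted p = 0.000260). In control seedlings it averaged 4.97 ± 3.92 CPM in fer control and 42.8 ± 8.39 CPM in WT control (SD, n = 4 each). AT4G35720 had the largest change of the group (-2.96 ± 0.49), and MEE47 (-2.57 ± 0.28) and AT5G57760 (-2.48 ± 0.33) came after AT5G03120. The smallest change among the called genes of this group was that of AT5G44680, a DNA glycosylase-like gene (-0.79 ± 0.19).

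RBCS3B, a Rubisco small subunit gene and a mesophyll marker, was just inside the rule (-1.53) and averaged 1801 CPM in fer Aradopside and 3725 CPM in WT Aradopside (log2 fold change -1.02 ± 0.24 (SE), adjusted p = 0.0101). It has near-identical neighbours, and how reads were assigned among them was not tested, so its value is uncertain. Members just inside the threshold were RBCS3B, RALF23, GALS1, AT1G26540 and AGP21, with ratios of -1.53 to -1.5, and the genes just outside were AT3G19850, CA1, PRP2, AT1G22330 and AT4G23820, at -1.49. The threshold marks no gap in the values. Isocitrate lyase (ICL) was called lower (-1.5 ± 0.49 (SE), adjusted p = 0.0477) with overlapping genotypes, and its call was lost without WT Aradopside replicate 1, 3 or 4 or fer Aradopside replicate 1, 2 or 3 (adjusted p between 0.0757 and 0.109).

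Lists of cell markers moved in part with the set. All 4 markers of dividing cells were called lower in treated fer seedlings, and their summed level was between 16.5 and 45.9 CPM in fer Aradopside and between 57.0 and 72.9 CPM in WT Aradopside. Of the 8 mesophyll markers 5 were called lower, with sums of 4897 to 9363 CPM in fer Aradopside and 11691 to 14923 CPM in WT Aradopside. Those called were RBCS1A, RBCS2B, RCA, LHCA1 and the member RBCS3B, while CAB2 (-0.14 ± 0.22), LHCB3 (-0.18 ± 0.19) and LHCA4 (-0.39 ± 0.18) did not pass. RBCS1A and RBCS3B, which averaged 6057 and 3725 CPM in WT Aradopside, make up most of the sum. Stomatal lineage markers were called lower in 2 of 6. Over all genes tested 13.4% were called lower and 17.3% higher. Other lists did not move this way. Of 4 vascular markers 0 were called (median log2 fold change 0.42, sums of 45.8 to 82.5 CPM in fer and 47.4 to 52.6 CPM in WT). The 7 tested root markers were CASP1, CASP2, MYB36, SCR, SHR, AT1G62500 and AT5G47450. Among them 1 was called lower and 2 higher (median 0.28). The meristem genes of that list, WOX5, PLT1 and PLT2, were not among those tested. Of the 22 tested root hair genes 0 were called lower and 1 higher, and their sums overlapped in treated seedlings (85.1 to 304 CPM in fer and 222 to 327 CPM in WT) but not in control seedlings (179 to 272 CPM in fer and 303 to 466 CPM in WT). None of the tested marker genes was at 0 in any group mean. The part of these cells in the decrease of the set was not tested.

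The level of the genes differed far less after arabidopside A than between genotypes. The rule itself required a large difference between genotypes in control seedlings, so nothing is read from that contrast. In WT seedlings the median log2 fold change of the 100 genes, Aradopside against control, was -0.31 against 0.00 over all genes in the fit, and 92 of 100 were below 0 (49.3% of all genes). Only 2 were at -1 or less (1.07% of all genes) and 0 at 1 or more (3.13% of all). In fer the median was -0.32 against -0.01 over all genes, with 80 below 0 (52% of all genes), 2 at -1 or less (0.601% of all) and 0 at 1 or more (1.04% of all). The fer median lay between -0.50 and -0.09 when single libraries were left out, with -0.09 without fer control replicate 1. The control libraries also chose the genes, so these responses are a description and were not tested.

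The lowest values in WT after arabidopside A were those of AT5G44260, BGAL2 and AT3G21330, with log2 fold changes of -1.26 ± 0.27, -1.03 ± 0.41 and -0.99 ± 0.41 (SE), followed by XTH15 (-0.88 ± 0.32) and XTH33 (-0.86 ± 0.44). BGAL2 had 5.65, 3.48, 9.98 and 2.68 CPM in WT Aradopside against 8.66, 14.00, 12.2 and 12.3 CPM in WT control. In fer the same gene had 3.804, 2.504, 3.47 and 3.35 CPM with Aradopside and 4.83, 0.352, 2.11 and 0.895 CPM in control, a log2 fold change of 0.53 ± 0.49. The first 3 are among the 6 genes not called lower in treated seedlings, and in each the WT level after treatment lay closer to the fer level. The rule set WT control above fer control, so a fall in WT narrows the treated difference and these are not separate observations. The highest value in WT was that of DND1 (0.41 ± 0.32), with 122, 123, 129 and 139.7 CPM after treatment and 105, 99.3, 96.4 and 99.7 CPM in control, followed by FLA2 (0.27 ± 0.38), OCT3 (0.21 ± 0.27), AT2G26690 (0.20 ± 0.19) and ICL (0.18 ± 0.48).

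**Figure D5:**
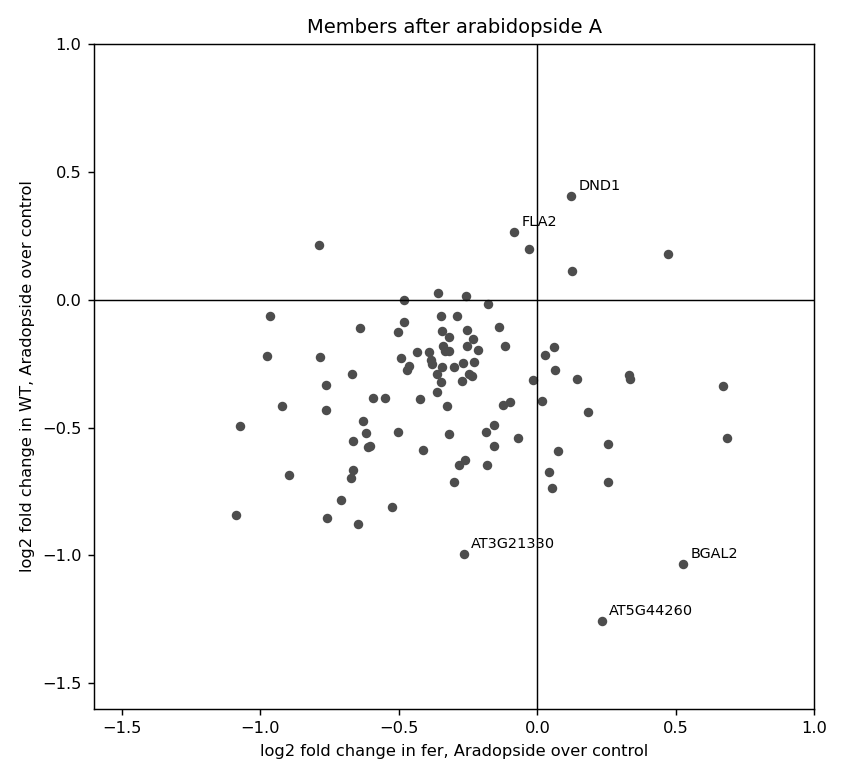
Log2 fold change after arabidopside A (Aradopside over control) of the 100 genes in fer (x axis) and in WT (y axis), 1 point per gene. Most points lie below and to the left of 0, and AT5G44260 and BGAL2 lie lowest in WT, at -1.26 and -1.03.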

How the data were processed

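Whole seedlings of WT and fer, with or without arabidopside A, were profiled by 3′ QuantSeq, with 4 libraries per group called biological replicates by the submitters. The deposited counts are raw reads per gene, which the authors aligned to TAIR10 with STAR and counted with htseq-count (intersection-nonempty). The strand option is not given in the sources used here. Members and lists were chosen with earlier results of these data known, and families matched by symbol, the roles and the BZR1, HD-Zip and TCP motifs were added after values were seen. CPM was each count divided by its column total, with no other scaling. The comparison of fer Aradopside with WT Aradopside used edgeR 4.0.16 in R 4.3.3 (TMM, filterByExpr, robust quasi-likelihood F test, Benjamini-Hochberg adjustment, threshold 0.05) on those 8 libraries, and responses came from a fit of all 16. Standard errors are the log2 fold change divided by the square root of F. On simulated counts for this comparison 174 of 200 genes changed by a log2 of 1.5 were recovered among 17008 tested, with 4.40% of calls false. The simulation gave both genotypes the same spread per gene and left out the division among the fer replicates. It also changed far fewer genes than were called in the data, so these rates need not hold there. Libraries of a group all differed by more than counting noise (smallest chi-square 2.71 a gene), and no library was treated as a repeat of another. Depth limits low genes, and a count of 3 in a library corresponds to between 0.114 and 1.05 CPM.

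Gene identifiers matched TAIR10.1 for 32548 of 32833 genes and for all 100 members, and upstream sequences are credited to RefSeq TAIR10.1. Of the members, 20 overlap an annotated gene on the opposite strand and 3 on the same strand. Named genes were the 15 lowest in ratio, the 10 highest in WT control, up to 4 members per list with at least 2, those not called in treated seedlings, the 5 largest rises and falls in WT, those next to the threshold, annotated neighbours and up to 4 further genes of such lists, and a few genes outside this rule were named after their values were seen. Alternatives were other normalizations and filters, DESeq2 1.42.0, limma-voom (limma 3.58.1), all 16 libraries, the replicate block, a thinned deepest library, a required fold change, other thresholds of the rule and leaving out each library. Deviations of same-numbered fer Aradopside and WT Aradopside libraries were not correlated (r between -0.0894 and 0.0121), so the number was not used as a block in the comparison of genotypes, whereas same-numbered fer Aradopside and fer control libraries were (r between 0.185 and 0.610). Differently numbered fer libraries reached 0.694, so the data group replicates 1 and 2 apart from 3 and 4 rather than pairing single numbers.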

Additional observations from a re-analysis of the deposited data

Results flagged for a closer look

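Within groups of 4 libraries, a highest or lowest value was set far from the other 3 in 9 of 236 groups of values examined, where chance alone sets about 1 in 20 apart. The total of fer Aradopside replicate 2, 26358335 counts, was far above the other libraries of its group (4994304 to 6860427). For AT1G29090 the single count in fer control replicate 1 (0.201 CPM) was flagged because the other 3 libraries were at 0. XYL1 was low in WT control replicate 3 (691 CPM), and TUB1 was high in WT control replicate 1 (65.2 CPM). In fer Aradopside replicate 1, CYP77B1 (8.01 CPM) and AT1G52190 (23.6 CPM) were above the other 3 libraries. In WT Aradopside, CYP707A2 was high in replicate 2 (8.84 CPM), AGP26 was high in replicate 3 (144 CPM) and AT4G38410 was low in replicate 2 (15.3 CPM).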

How the results depend on the processing

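The median log2 fold change of the 100 genes in treated seedlings lay between -2.04 and -1.68 when single libraries were left out and between -1.93 and -1.75 under the other planned settings, and the number called lower between 85 and 94 when single libraries were left out. The 77 called with at least 10 counts required in every library leaves out 17 genes called otherwise. DESeq2 called 95 and limma-voom 95. No paired numbers were found between genotypes, and the replicate block called 97 and changed the medians of the responses to -0.34 in WT and -0.31 in fer. When calls also needed a change of 1 or more on the log2 scale, 2494 genes were called in all, 729 lower and 1765 higher, and 7 FLA genes. XTH genes called higher numbered 1 without a filter, between 1 and 6 when single libraries were left out, and 5 without fer Aradopside replicates 1 and 2. AGP genes called higher numbered 1 with at least 10 counts in every library and with limma-voom, between 1 and 3 when single libraries were left out, 5 without fer Aradopside replicates 1 and 2 and 1 without 3 and 4. The causes were not tested. The rule took 458 genes at a log2 ratio of -1, 24 at -2, and between 78 and 200 when single control libraries were left out, with 200 without fer control replicate 1. Of the named genes, only GASA4 changed direction, at 0.10 on the log2 scale without fer Aradopside replicates 3 and 4 (not called either way). Genes of a few CPM or less in fer rest on few counts in most libraries.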
